A study of Mus musculus with 32 samples.

Results

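The genes described here are 10 interleukin, colony-stimulating factor and stem cell factor genes of lung endothelial cells (ECs): Csf1, Csf2, Csf3, Kitl, Il6, Lif, Il11, Il15, Il7 and Il33. They were taken by gene symbol from the deposited table of gene counts, 10 of 54429 symbols, and all 10 were found. The libraries came from Veravec, a mouse lung EC line, which the study transfected 2 times with a control siRNA (si-control) or with siRNA against Dnmt1 (si-dnmt), the maintenance DNA methyltransferase. The study lists 2 siRNA sequences against Dnmt1, and neither it nor the labels say whether they were pooled or used in separate libraries. Each siRNA was followed by no cytokine, TNFα at 10 ng/mL (TNF), IFNγ at 1000 U/mL (IFN) or both (TNF + IFN) for 16 h, and the sources give no separate doses for the combination. The 8 groups, si-control, si-control + TNF, si-control + IFN, si-control + TNF + IFN and the corresponding si-dnmt groups, held 4 libraries each. The labels call the 4 libraries of a group biological replicates and do not say which cultures or days they came from, so that p-values measure the spread between these libraries, which may be partly technical. All libraries are from 1 cell line grown without immune cells, and the comparisons ask how the transcripts for these secreted factors vary with Dnmt1 silencing and with the cytokines.

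ECs line the vessel wall and signal to blood and tissue cells through secreted cytokines. Csf1, Csf2 and Csf3 encode the colony-stimulating factors M-CSF, GM-CSF and G-CSF, which act on macrophages, on granulocytes and macrophages, and on neutrophils. Kitl encodes stem cell factor, the ligand of the receptor tyrosine kinase KIT. Il6, Lif and Il11 belong to the family of cytokines that signal through the shared chain gp130, encoded by Il6st. Il15 and Il7 encode cytokines of the common gamma chain family that sustain T cells and NK cells, and Il33 encodes an alarmin held in the nucleus until it is released. TNFα, which signals to NF-kB, and IFNγ are among the main cytokines that activate ECs in inflammation.

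Total counts ran from 17362546 to 33500030 per library (median 20859668). Levels are given as CPM, the count of a gene scaled by the depth of its library with edgeR's TMM factors. Dnmt1 stood at 120 ± 35.3 CPM (SD, n = 4) in si-control and at 8.92 ± 2.92 CPM in si-dnmt with no cytokine, and its log2 fold change with si-dnmt lay between -3.76 and -4.08 over the 4 cytokine states. In every group replicates 1 and 2, called the first set below, stood apart from replicates 3 and 4, the second set. With no cytokine the Dnmt1 change was -2.97 within the first set and -4.54 within the second, and the labels give no batch for this split. Results that differ between the sets are given within each of them.

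All 12 endothelial markers passed the filter on low counts, and their summed level lay between 2853 and 8827 CPM. It was lower in the TNF groups (3924 to 5761 CPM in si-control + TNF against 5935 to 8827 CPM in si-control). Of 12 leukocyte markers, 3 passed the filter (Cd68, Lyz2 and Cd14), Ptprc did not, and Cd3e was at 0 in every library. The leukocyte sum went from 208 to 276 CPM in si-control to 103 to 170 CPM in si-control + TNF + IFN. In si-dnmt it went from 143 to 206 CPM to 69.3 to 127 CPM with both cytokines. Cd68 averaged 125 CPM in si-control, and Lyz2 went from 82.9 CPM there to 15.2 CPM in si-control + TNF + IFN. Summed fibroblast markers, of which 5 of 8 passed, moved with IFN, from 102 to 164 CPM in si-control and 94.5 to 149 CPM in si-dnmt to 201 to 410 CPM in si-control + IFN and 159 to 263 CPM in si-dnmt + IFN. They lay at 234 to 412 and 135 to 253 CPM under TNF + IFN and at 106 to 206 and 88.0 to 167 CPM under TNF. Most of it was Thy1 (126 CPM on average in si-control and 299 CPM in si-control + IFN), and Dcn went with TNF, from 1.02 to 32.8 CPM in si-control. Summed epithelial markers, of which 1 of 8 passed (Krt18), ranged from 3.80 to 22.7 CPM with Sftpc at 0. Pericyte and smooth muscle markers, of which 5 of 8 passed, moved with the siRNA, from 8.22 to 70.9 CPM in the si-control libraries to 40.6 to 233 CPM in the si-dnmt libraries, most of it Acta2. In si-control they also moved with IFN, from 8.22 to 28.3 CPM with no cytokine to 21.4 to 70.9 CPM under IFN. Under TNF + IFN the siRNA ranges overlapped, at 19.3 to 65.6 CPM in si-control and 60.2 to 135 CPM in si-dnmt. The share of counts from mitochondrial genes moved with the siRNA and the cytokines. With no cytokine it was 4.43 to 5.77% after si-control and 3.27 to 4.03% after si-dnmt, and with both cytokines 2.73 to 3.65% and 2.13 to 2.64%. The part of these markers and of this share in the results was not tested, and in bulk RNA fewer cells of a type and less RNA per cell cannot be told apart.

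Of the 10 genes, 9 passed the filter. Il11 did not, with at most 12 counts in any library. The levels spanned a wide range. Per kilobase of annotated exon and averaged over the 32 libraries, Csf1 stood at 356 CPM per kb, Il15 at 16.3 CPM per kb, Kitl at 10.5 CPM per kb and Il6 at 5.69 CPM per kb. Lif, Csf2 and Il7 lay between 1.65 and 2.71 CPM per kb, and Csf3 at 0.614 CPM per kb. Il33 and Il11 were both under 0.1 CPM per kb (0.0856 and 0.0830). Csf1 was thus the most abundant of these transcripts per length, by more than an order of magnitude. Csf2 overlaps the predicted gene Gm12223 and Il7 overlaps Gm16685, each on the opposite strand, and their reads cannot be told apart without the strand setting of the counting.

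**Figure D1:**
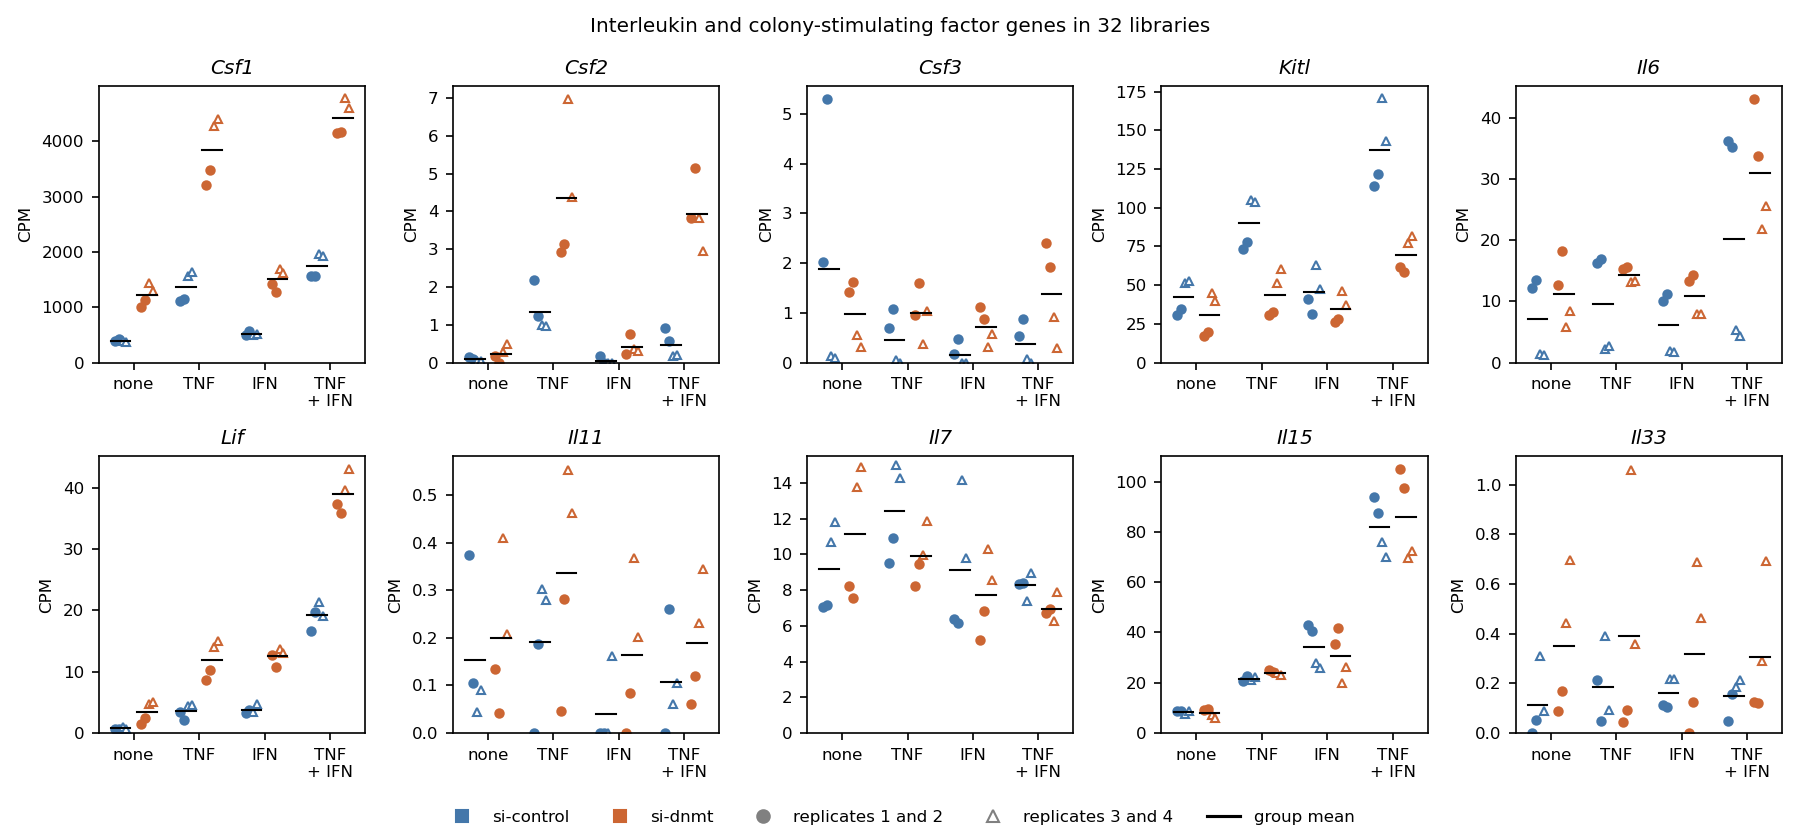
Level of each of the 10 genes (CPM, linear axes from 0) in the 32 libraries by cytokine state, si-control in blue and si-dnmt in orange, with replicates 1 and 2 as filled circles, replicates 3 and 4 as open triangles and group means as bars. Csf1 and Lif were higher in all si-dnmt libraries than in the si-control libraries of the same state, Il15 with both cytokines had means of 81.8 (si-control) and 86.0 CPM (si-dnmt), and in si-control the triangles of Il6 lie between 1.21 and 5.24 CPM while its circles start at 10.0 CPM.

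Of the 10 genes, 4 passed the test between the siRNAs in at least 1 state: Csf1, Csf2, Lif and Kitl. Their promoter sequences are shown because CpG dinucleotides are the sites that DNMT1 keeps methylated. Methylation itself was not measured here. Each line gives the 250 bases upstream of the RefSeq transcription start (GRCm38.p6, read 5′ to 3′ on the strand of the gene), with each CpG in capitals.
Csf1, chr3:107760470-107760719, minus strand: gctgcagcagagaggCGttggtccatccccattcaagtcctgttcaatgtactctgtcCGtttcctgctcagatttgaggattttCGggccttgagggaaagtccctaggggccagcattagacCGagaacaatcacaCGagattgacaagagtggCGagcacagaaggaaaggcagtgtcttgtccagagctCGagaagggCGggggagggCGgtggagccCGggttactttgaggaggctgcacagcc
Csf2, chr11:54249900-54250149, minus strand: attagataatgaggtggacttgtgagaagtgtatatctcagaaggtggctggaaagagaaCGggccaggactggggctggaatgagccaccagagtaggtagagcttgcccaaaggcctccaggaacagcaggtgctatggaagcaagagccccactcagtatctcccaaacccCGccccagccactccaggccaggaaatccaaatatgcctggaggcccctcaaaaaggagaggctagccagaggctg
Lif, chr11:4257318-4257567, plus strand: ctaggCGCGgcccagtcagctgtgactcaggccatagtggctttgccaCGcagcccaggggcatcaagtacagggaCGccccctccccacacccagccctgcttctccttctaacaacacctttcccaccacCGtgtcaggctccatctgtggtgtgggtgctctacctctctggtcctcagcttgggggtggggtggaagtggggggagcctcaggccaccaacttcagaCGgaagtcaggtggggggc
Kitl, chr10:100015571-100015820, plus strand: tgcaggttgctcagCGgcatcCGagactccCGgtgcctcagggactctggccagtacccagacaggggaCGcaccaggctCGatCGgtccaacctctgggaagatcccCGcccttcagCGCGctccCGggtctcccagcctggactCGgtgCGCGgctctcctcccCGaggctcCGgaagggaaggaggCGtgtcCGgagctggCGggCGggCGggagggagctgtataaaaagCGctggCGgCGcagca

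The 4 promoters differ in CpG number. The Csf2 window holds 2 CpGs and the Lif window 6, against a median of 6 over 32851 such windows of all genes in the table. The Csf1 window holds 10, more than 62.2% of all windows, and the Kitl window 23, more than 86.7% of all windows. The GC content of the Kitl window was 69.2% and that of the Csf2 window 55.2%, against a median of 52.4%. Entries were found for 7 of the 10 genes, and Csf3, Il15 and Il7 had none. The NF-kB consensus and the AP-1 site TGANTCA were searched on both strands and occur in 3.90% and 6.75% of all windows. Il11 and Il33 have 2 windows each, and the other genes found have 1. The Csf1 and Il6 windows each hold an NF-kB match. Those of Lif and Il6 hold an AP-1 match, as does 1 of the 2 Il11 windows. A match describes the letters of the window only.

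Silencing of Dnmt1 went with more Csf1, Lif and Csf2 transcript and less Kitl. All log2 fold changes below are si-dnmt over si-control (± SE), from edgeR's quasi-likelihood test with Benjamini-Hochberg adjustment over 15254 genes, called at an adjusted p under 0.05. With no cytokine, 2 of the 9 genes tested were called, Csf1 and Lif, both higher, where 18.5% of all genes were called. Under TNF, 4 were called, Csf1, Csf2 and Lif higher and Kitl lower, beside 20.0% of all genes. Under IFN, Csf1, Csf2 and Lif were called higher, 3 of 9 beside 20.3% of all genes. Under TNF + IFN the 4 called under TNF were called again in the same directions, beside 17.7% of all genes. The median log2 fold change of the 9 genes was 0.67, 1.03, 1.00 and 1.02 in these 4 states, and that of all genes tested lay between -0.007 and 0.004. The other 5 genes tested, Il6, Csf3, Il33, Il15 and Il7, were called in no state in this fit.

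**Figure D2:**
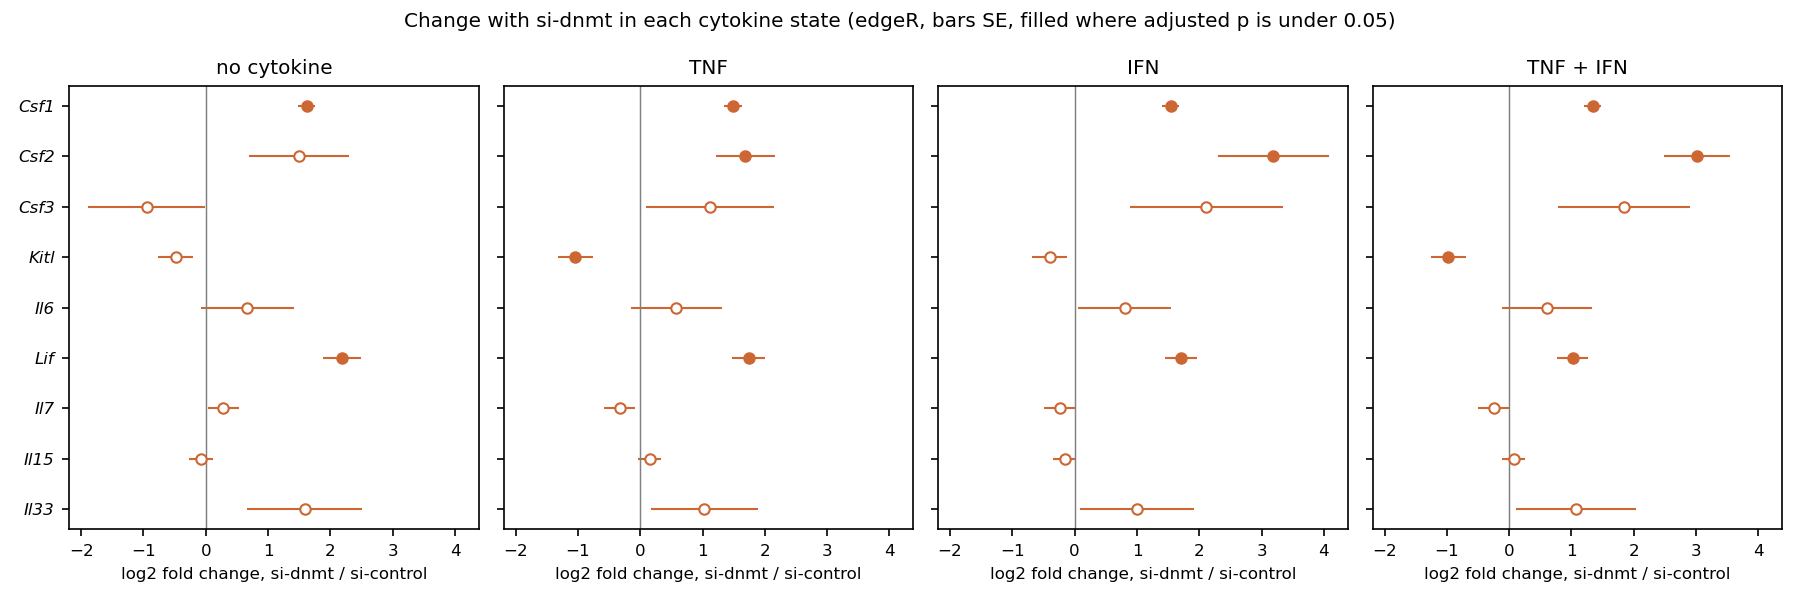
Log2 fold change between si-dnmt and si-control (points, bars SE from edgeR) of the 9 genes tested, in each cytokine state, filled where the adjusted p is under 0.05. Csf1 and Lif are filled and right of 0 in all 4 panels, Csf2 in 3, and Kitl is filled and left of 0 under TNF and under TNF + IFN.

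When the 2 replicate sets were fitted separately, Csf1 and Lif kept their sign and call in both sets and all 4 states. Under TNF the second set called 7 of the 10 genes, all of which passed the filter there, beside 36.4% of all genes tested in that set, and the first set called 3 of 8 (Csf1, Lif and Kitl), beside 26.1%. Il6, Csf3 and Csf2 were called under TNF in the second set only, with values of 2.40, 4.63 and 2.52 against -0.10, 0.54 and 0.82 in the first, and so was Il7 (-0.43 against -0.20). A fit with the replicate number as a block added calls in 3 states, and also called more of all genes. It added Kitl (-0.53, adjusted p = 0.00203) and Il33 (1.63, adjusted p = 0.0451) with no cytokine (32.4% of all genes called), Kitl (-0.41, adjusted p = 0.0140) and Csf3 (2.48, adjusted p = 0.0163) under IFN (34.5%), and Il6 (1.05, adjusted p = 0.0460) and Csf3 (2.07, adjusted p = 0.0173) under TNF + IFN (30.8%). Under TNF it called the same 4 genes as without the block, beside 33.4% of all genes.

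**Figure D3:**
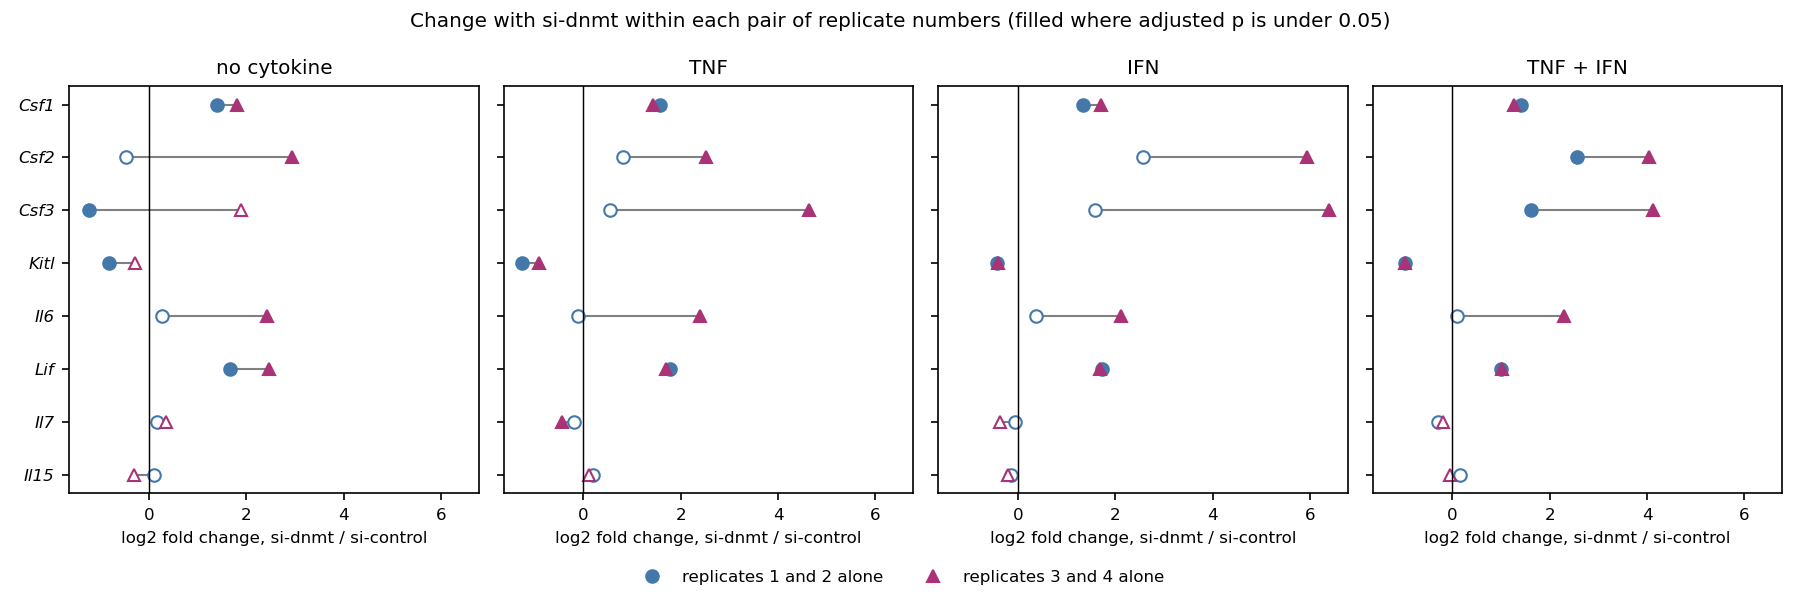
Log2 fold change between si-dnmt and si-control fitted to replicates 1 and 2 (blue circles) or to replicates 3 and 4 (purple triangles) for the 8 genes tested in both, by cytokine state, filled where the adjusted p is under 0.05. Csf1 and Lif are filled and right of 0 for both sets in all states, while the points of Il6 are apart in every state, at -0.10 to 0.37 for the circles and at 2.13 to 2.43 for the triangles.

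In the fit without the block, the cytokines raised Csf1, Csf2, Kitl, Il15 and Lif under one or both siRNAs, each in its own pattern. With the block, TNF + IFN also raised Il6 under both siRNAs, as it did within each replicate set. The block also called a rise of Il7 with TNF in si-control. Against si-control without cytokine, TNF raised 5 of the 9 genes tested (Csf1, Csf2, Kitl, Il15 and Lif), beside 30.8% of all genes called. IFN raised 3 (Csf1, Il15 and Lif) and lowered Csf3, beside 14.5% of all genes. TNF + IFN raised the same 5 as TNF, beside 45.2% of all genes. In the si-dnmt libraries, TNF raised 4 (Csf1, Csf2, Il15 and Lif; 21.0% of all genes called), IFN raised 2 (Il15 and Lif; 9.01%), and TNF + IFN raised 5 and lowered Il7 (40.2%). Adding IFN to TNF raised Il15 and Lif, 2 of 9, under si-control (21.0% of all genes called) and under si-dnmt (17.5%). With the replicate block, whose calls are given below gene by gene, the share of all genes called for TNF, IFN and TNF + IFN was 43.4%, 25.4% and 55.1% in si-control and 34.3%, 19.0% and 51.7% in si-dnmt. The contrasts with no cytokine of 1 siRNA share the same 4 untreated libraries.

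**Figure D4:**
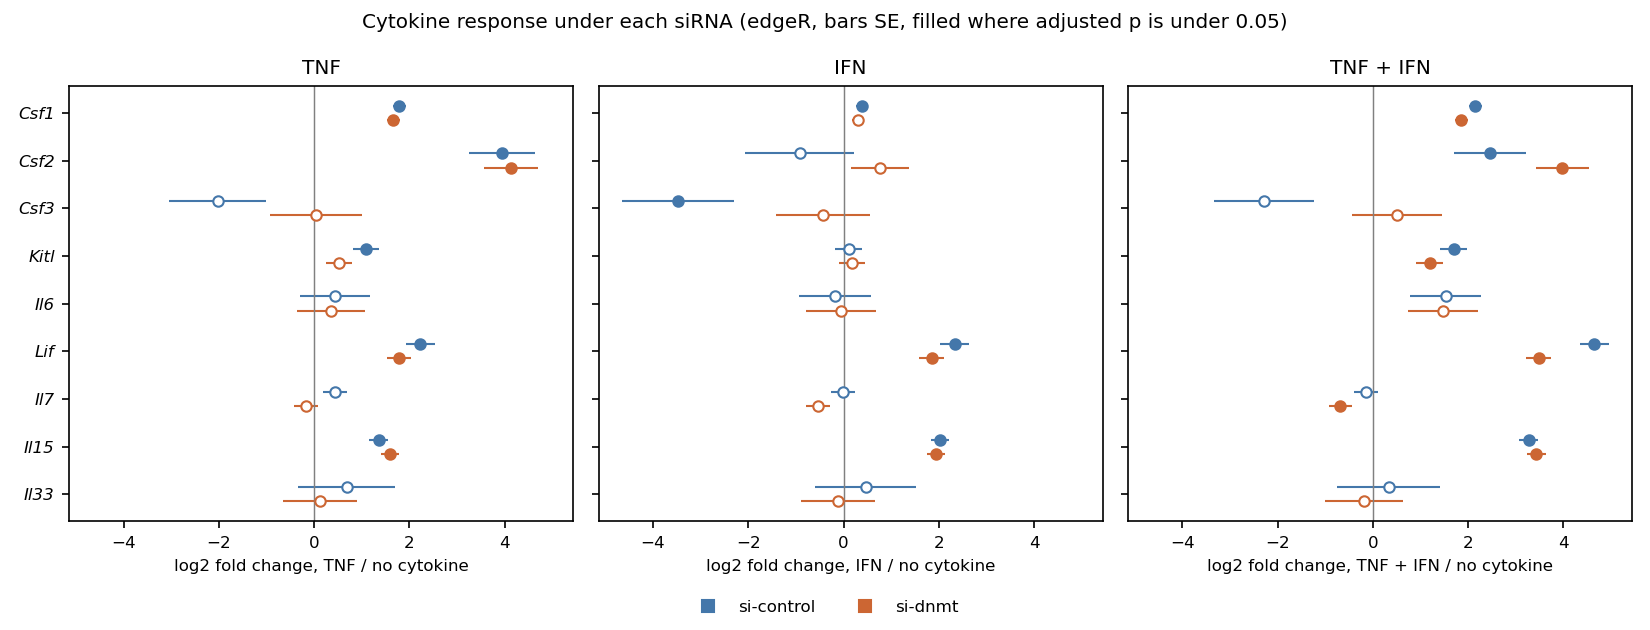
Log2 fold change of TNF, IFN and TNF + IFN against no cytokine (points, bars SE from edgeR) for the 9 genes tested, si-control in blue and si-dnmt in orange, filled where the adjusted p is under 0.05. Il15 and Lif are filled in all 3 panels under both siRNAs, and Lif under TNF + IFN stands at 4.65 in si-control and 3.48 in si-dnmt.

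Whether the siRNA changed the response to a cytokine was tested by the interaction of both in the same fit. None of the 9 genes was called for TNF, IFN or TNF + IFN by edgeR, where 0.0328%, 0.0459% and 0.531% of all genes were called, and DESeq2 called none either. At an unadjusted p under 0.05 the counts were 0, 0 and 1. That 1 was Lif under TNF + IFN (-1.17 ± 0.39, adjusted p = 0.241), which the combination raised 25.1-fold in si-control and 11.2-fold in si-dnmt. With the replicate number as a block this interaction was called (-1.14, adjusted p = 0.0322, beside 4.18% of all genes), as it was without si-dnmt replicate 1. The second set alone called it too (-1.43), with Csf1 (-0.55) and Kitl (-0.69), beside 11.8% of all genes, and for TNF it called Csf1 (-0.39), Kitl (-0.61) and Il7 (-0.78), beside 8.04%. The first set alone called Csf3 for IFN (2.82, beside 1.80% of all genes) and TNF + IFN (2.84, beside 4.86%) and none of those of the second set.

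Whether TNF and IFN together departed from the sum of their log2 effects was tested in the same way. None of the 9 genes was called in si-control (1.06% of all genes called) or in si-dnmt (0.354%), with 0 at an unadjusted p under 0.05 in both and 0 by DESeq2. Within the first set Il6 was called above the sum under both siRNAs (1.36 and 1.47) and Csf3 in si-control (3.12), where 10.6% of all genes were called in si-control and 4.80% in si-dnmt. Within the second set Il7 was called below the sum in si-control (-0.93), beside 4.35% of all genes.

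Csf1, which encodes the growth and survival factor of macrophages, was higher after si-dnmt in every state and also rose with TNF. With no cytokine its level was 386, 421, 393 and 379 CPM in the si-control libraries (replicates 1 to 4) and 1008, 1122, 1435 and 1297 CPM in the si-dnmt libraries. Under TNF it was 1109, 1146, 1571 and 1640 CPM in si-control and 3216, 3472, 4282 and 4411 CPM in si-dnmt. The ranges were far apart in both states, and si-control + TNF lay at about the level of si-dnmt with no cytokine (1366 ± 278 and 1215 ± 188 CPM, SD, n = 4), with overlapping ranges. Under IFN Csf1 stood at 490, 567, 493 and 520 CPM in si-control and at 1423, 1282, 1699 and 1617 CPM in si-dnmt. Under TNF + IFN it reached 1571, 1560, 1962 and 1919 CPM in si-control and 4157, 4163, 4779 and 4605 CPM in si-dnmt, the highest group. All si-dnmt libraries lay above all si-control libraries of their state. The fold change with si-dnmt was 3.08 with no cytokine (log2 1.62 ± 0.14, adjusted p = 3.28e-09), 2.81 under TNF (1.49 ± 0.14), 2.91 under IFN (1.54 ± 0.14) and 2.53 under TNF + IFN (1.34 ± 0.14, adjusted p = 9.09e-08). All 4 were called within each set, with 1.34 to 1.57 in the first and up to 1.82 in the second.

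TNF raised Csf1 3.46-fold in si-control (log2 1.79 ± 0.14) and 3.16-fold in si-dnmt (1.66 ± 0.14). The siRNA by TNF interaction was -0.13 ± 0.19 (95% interval -0.52 to 0.26), and TNF + IFN raised Csf1 4.44-fold and 3.64-fold. The response to IFN alone was small, 1.31-fold in si-control (0.39 ± 0.13, adjusted p = 0.0475) and 1.24-fold in si-dnmt (0.31 ± 0.13, adjusted p = 0.178). Leaving out any of the 8 libraries lost the si-control call (0.32 to 0.42), as did DESeq2's size factors (0.38, adjusted p = 0.0586). Csf1 in si-dnmt was called with the replicate block (0.31, adjusted p = 0.0192). IFN added to TNF gave a Csf1 change of 0.36 ± 0.13 in si-control (adjusted p = 0.0549), called with the block (0.37, adjusted p = 0.00322) and without si-control + TNF replicate 3 or 4.

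Csf2, which encodes GM-CSF, was near the detection limit without TNF, and was higher after si-dnmt under TNF, IFN and TNF + IFN. With no cytokine its counts were 3, 2, 1 and 1 in the si-control libraries and 4, 0, 8 and 14 in the si-dnmt libraries. Under IFN they were 3, 0, 0 and 0 in si-control and 4, 18, 8 and 11 in si-dnmt. These libraries carry few or no Csf2 reads: 3 counts, the limit that a count of 0 allows, is 0.0896 to 0.173 CPM at these depths. Under TNF the level was 2.19, 1.22, 0.995 and 0.975 CPM in si-control and 2.93, 3.14, 6.97 and 4.37 CPM in si-dnmt. TNF + IFN left it at 0.913, 0.573, 0.185 and 0.212 CPM in si-control and 3.82, 5.16, 3.82 and 2.96 CPM in si-dnmt. The ranges of the 2 siRNAs did not overlap under TNF, IFN or TNF + IFN, and overlapped with no cytokine. The fold change with si-dnmt was 3.22 under TNF (log2 1.69 ± 0.47, adjusted p = 0.0118) and 8.09 under TNF + IFN (3.02 ± 0.53, adjusted p = 0.000180). Under IFN, where every si-control library had 3 counts or fewer, the ratio of summed counts per depth was 10.3 (95% counting interval 3.28 to 51.9), and edgeR's adjusted p was 0.0106. With no cytokine the ratio was 3.05 (1.29 to 8.31), which the test over replicates did not call (adjusted p = 0.207). Counting intervals cover counting error only.

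Single libraries and the replicate sets bear on Csf2. Within the first set the TNF difference was 0.82 (adjusted p = 0.161), within the second 2.52, and without si-dnmt + TNF replicate 3 it was 1.36 (adjusted p = 0.0668). The IFN difference was 2.57 within the first set (adjusted p = 0.0519) and 5.93 within the second, and without si-control + IFN replicate 1, the only library of its group with a count, the fitted value was 6.16. With no cytokine the first set gave -0.47 and the second 2.94, the latter called. Under TNF + IFN both sets were called (2.57 and 4.04), and leaving out single libraries lost no call.

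TNF raised the summed Csf2 counts per depth 16.5-fold in si-control (95% counting interval 7.77 to 41.9), and in si-dnmt 17.5-fold by edgeR (log2 4.13 ± 0.56, adjusted p = 3.53e-06). In si-control, TNF + IFN gave a ratio of 6.00 to no cytokine (2.64 to 15.9), called by edgeR (adjusted p = 0.00910) but not without si-control + TNF + IFN replicate 1 (1.91). Against TNF alone, TNF + IFN was -1.47 ± 0.54 in si-control (adjusted p = 0.0507), which DESeq2 called (-1.51, adjusted p = 0.0205) and the block fit too (-1.46, adjusted p = 0.0236), and -0.15 ± 0.45 in si-dnmt. The difference between these 2 changes was not tested.

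Csf3, which encodes G-CSF, was low throughout and split by replicate set. With no cytokine it stood at 2.02, 5.30, 0.132 and 0.0897 CPM in si-control and at 1.42, 1.63, 0.546 and 0.313 CPM in si-dnmt. Under TNF it stood at 0.688, 1.08, 0.0433 and 0 CPM in si-control and at 0.961, 1.60, 0.369 and 1.03 CPM in si-dnmt. The first set carried nearly all Csf3 reads of the si-control libraries, 33.0 times the level of the second with no cytokine and 40.8 times under TNF, against 3.55 and 1.83 times in si-dnmt. Under IFN the level was 0.168, 0.468, 0 and 0 CPM in si-control and 1.11, 0.883, 0.322 and 0.577 CPM in si-dnmt. With TNF + IFN it was 0.529, 0.885, 0.0616 and 0 CPM in si-control and 2.40, 1.92, 0.925 and 0.296 CPM in si-dnmt. The ranges of the 2 siRNAs overlapped in every state, and si-control + IFN replicates 3 and 4 held no Csf3 read.

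With si-dnmt the Csf3 difference was -0.95 ± 0.94 with no cytokine and 1.12 ± 1.03, 2.11 ± 1.23 and 1.84 ± 1.06 under TNF, IFN and TNF + IFN, none of them called. In the block fit the IFN and TNF + IFN values were called (2.48, adjusted p = 0.0163, and 2.07, adjusted p = 0.0173). With no cytokine the first set gave -1.23, which was called, and the second gave 1.90. The first set also called TNF + IFN (1.61). The second set called the other 3 states, with fitted values of 4.13 to 6.39 against si-control libraries that had 0 or 1 counts. Leaving out si-control replicate 2, with 100 of the 148 Csf3 counts of its group, turned the value to 0.38. In si-control, IFN lowered Csf3 by -3.48 ± 1.18 on the log2 scale (adjusted p = 0.0452), a call lost without 5 of the 8 libraries. The corresponding changes with TNF (-2.03 ± 1.01) and TNF + IFN (-2.28 ± 1.05) were not called, but were with the block (-1.82, adjusted p = 0.0148, and -2.06, adjusted p = 0.00714) and within the first set (-2.02 and -2.34). The TNF + IFN value was also called without 1 of 3 single libraries. In si-dnmt the 3 changes were 0.04, -0.43 and 0.51, not called.

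Kitl, which encodes stem cell factor, was lower after si-dnmt under TNF and TNF + IFN, and rose with TNF. With no cytokine it stood at 31.0, 34.7, 51.3 and 52.7 CPM in si-control and at 17.0, 19.8, 45.2 and 39.7 CPM in si-dnmt. Under TNF it stood at 73.5, 77.6, 105 and 104 CPM in si-control and at 30.9, 32.8, 51.1 and 60.5 CPM in si-dnmt. The siRNA ranges overlapped with no cytokine and were apart under TNF. Under IFN the level was 41.3, 31.5, 63.0 and 47.3 CPM in si-control and 26.1, 28.4, 46.1 and 37.4 CPM in si-dnmt. Under TNF + IFN it was 114, 122, 171 and 143 CPM in si-control, the highest group, and 61.6, 58.3, 77.0 and 81.5 CPM in si-dnmt. In each group the first set was below the second on average. Kitl was 2.06-fold lower with si-dnmt under TNF (log2 -1.04 ± 0.28, adjusted p = 0.00791) and 1.97-fold lower under TNF + IFN (-0.98 ± 0.28, adjusted p = 0.0127), and both sets called both values (-0.91 to -1.25 under TNF and -0.98 in each set under TNF + IFN). With no cytokine the difference was -0.48 ± 0.28 (adjusted p = 0.251) and under IFN -0.40 ± 0.28 (adjusted p = 0.328), and both were called with the replicate block (-0.53 and -0.41), the IFN value also within each set (-0.43 and -0.41). The no-cytokine difference was -0.82 within the first set, called, and -0.29 within the second.

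TNF raised Kitl 2.12-fold in si-control (1.09 ± 0.28, adjusted p = 0.00347). In si-dnmt the TNF response was 0.52 ± 0.28 (adjusted p = 0.193), called with the block (0.56, adjusted p = 0.00104) and within each set. The siRNA by TNF interaction of Kitl was -0.56 ± 0.39 (95% interval -1.36 to 0.23). TNF + IFN raised Kitl 3.24-fold in si-control and 2.28-fold in si-dnmt. Adding IFN to TNF gave Kitl changes of 0.61 ± 0.27 and 0.67 ± 0.28, not called, which the block called (0.62, adjusted p = 0.000252, and 0.71, adjusted p = 6.92e-05), as did each set. IFN alone gave 0.11 ± 0.28 and 0.18 ± 0.28.

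Lif, a gp130 cytokine that signals through LIFR, rose with each cytokine and with si-dnmt. With no cytokine it stood at 0.657, 0.583, 1.05 and 0.718 CPM in si-control and at 1.42, 2.52, 4.71 and 5.11 CPM in si-dnmt. Under TNF it stood at 3.35, 2.06, 4.37 and 4.55 CPM in si-control and at 8.60, 10.3, 14.0 and 15.0 CPM in si-dnmt. No si-control library reached the lowest si-dnmt library of its state. Under IFN the level was 3.31, 3.69, 3.49 and 4.81 CPM in si-control and 12.7, 10.8, 13.7 and 13.0 CPM in si-dnmt. With TNF + IFN Lif reached 16.7, 19.7, 21.3 and 19.1 CPM in si-control and 37.3, 35.9, 39.6 and 43.0 CPM in si-dnmt. The siRNA ranges were apart in these states too, and the order of the 8 groups had 4 of 7 neighbor steps without overlap, the most of the 10 genes. Si-dnmt raised Lif 4.55-fold with no cytokine (log2 2.19 ± 0.31, adjusted p = 1.04e-05), 3.33-fold under TNF (1.74 ± 0.26), 3.28-fold under IFN (1.71 ± 0.26) and 2.03-fold under TNF + IFN (1.02 ± 0.25, adjusted p = 0.00386). The first set gave 1.67, 1.79, 1.73 and 1.00 and the second 2.46, 1.70, 1.68 and 1.03, each of them called.

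In si-control, TNF raised Lif 4.70-fold, IFN 5.01-fold and TNF + IFN 25.1-fold (log2 4.65 ± 0.31, adjusted p = 8.63e-13). The combined log2 change differed from the sum of the separate ones by 0.09 ± 0.44 (95% interval -0.82 to 1.00). In si-dnmt the folds were 3.44, 3.60 and 11.2, with a departure of -0.15 ± 0.35 (95% interval -0.87 to 0.57).

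Il6, a cytokine of the acute phase response, split by replicate set in the si-control libraries more than by siRNA or cytokine. With no cytokine it stood at 12.2, 13.5, 1.41 and 1.21 CPM in si-control and at 12.6, 18.3, 5.73 and 8.48 CPM in si-dnmt. Under TNF it stood at 16.3, 16.9, 2.25 and 2.74 CPM in si-control and at 15.3, 15.6, 13.1 and 13.3 CPM in si-dnmt. The second set of si-control held the low libraries in both states. Under IFN the level was 10.0, 11.2, 1.91 and 1.67 CPM in si-control and 13.3, 14.3, 7.87 and 7.85 CPM in si-dnmt. With TNF + IFN Il6 reached 36.2, 35.2, 5.24 and 4.39 CPM in si-control and 43.1, 33.8, 21.8 and 25.5 CPM in si-dnmt. In the 4 si-control groups the first set was at 5.92 to 9.82 times the level of the second, and in the si-dnmt groups 1.17 to 2.17 times, so that the siRNA ranges overlapped in every state.

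Over all 4 replicates the Il6 difference with si-dnmt was 0.58 to 0.80 on the log2 scale with SEs of 0.72 to 0.75, and it was called in no state (adjusted p = 0.495 to 0.634). Within the second set it was 2.43 with no cytokine, 2.40 under TNF, 2.13 under IFN and 2.30 under TNF + IFN, each of them called (adjusted p at most 6.84e-08). Within the first set it was 0.27, -0.10, 0.37 and 0.10 in the same order, not called. The block fit called the difference under TNF + IFN (1.05, adjusted p = 0.0460). TNF + IFN gave a change of Il6 of 1.53 ± 0.75 in si-control (adjusted p = 0.0973) and of 1.47 ± 0.73 in si-dnmt (adjusted p = 0.113). Both were called with the block (1.52, adjusted p = 0.00305, and 1.58, adjusted p = 0.00148), and within each set (1.32 to 1.87). Adding IFN to TNF gave 1.09 ± 0.73 in si-control and 1.12 ± 0.72 in si-dnmt, the former called with the block (1.05, adjusted p = 0.0486) and both called within each set (0.85 to 1.32).

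Il11, the third gp130 cytokine of the group, had 0 to 12 counts per library and did not pass the filter of the fit over all libraries. Its group means lay between 0.0405 ± 0.0810 CPM (SD, n = 4) in si-control + IFN and 0.336 ± 0.224 CPM in si-dnmt + TNF, with overlapping ranges at each step of the order. Without the filter on low counts Il11 was called in no contrast (adjusted p of 0.412 to 1.00 by edgeR), and within the second set, where it passed the filter, in none either (0.0623 to 0.958).

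Il15, which encodes a cytokine presented to NK cells and T cells on its receptor chain IL-15Rα, rose with both cytokines and did not pass the test between the siRNAs. With no cytokine it stood at 8.91, 8.64, 7.65 and 8.61 CPM in si-control and at 9.17, 9.62, 7.23 and 5.98 CPM in si-dnmt. Under TNF it stood at 20.5, 22.5, 21.1 and 22.3 CPM in si-control and at 24.9, 24.1, 23.8 and 23.1 CPM in si-dnmt. The TNF libraries were close to each other within each siRNA, and here alone the siRNA ranges did not overlap. Under IFN the level was 43.0, 40.5, 27.7 and 25.9 CPM in si-control and 35.2, 41.7, 19.8 and 26.1 CPM in si-dnmt. With TNF + IFN Il15 reached 94.0, 87.4, 75.8 and 69.8 CPM in si-control and 105, 97.4, 69.4 and 72.2 CPM in si-dnmt. In the groups with IFN the first set was the higher one. The difference with si-dnmt was -0.08 (95% interval -0.48 to 0.31) with no cytokine, 0.15 (-0.23 to 0.53) under TNF, -0.16 (-0.54 to 0.22) under IFN and 0.07 (-0.30 to 0.45) under TNF + IFN. A change of 2-fold in either direction lies outside all 4 intervals.

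TNF raised Il15 2.55-fold in si-control (log2 1.35 ± 0.19, adjusted p = 4.28e-06) and 3.00-fold in si-dnmt. IFN raised it 4.05-fold (2.02 ± 0.19, adjusted p = 4.78e-09) and 3.84-fold, and TNF + IFN 9.67-fold (3.27 ± 0.20, adjusted p = 1.51e-13) and 10.8-fold. The departure of the combination from the sum of the log2 effects was -0.10 ± 0.26 under each siRNA (95% interval -0.64 to 0.44 in both). These calls held in both replicate sets.

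Il7, which encodes a survival factor of lymphocytes, varied little. Its group means ran from 6.97 ± 0.678 CPM (SD, n = 4) in si-dnmt + TNF + IFN to 12.4 ± 2.64 CPM in si-control + TNF, and all neighboring groups overlapped. The Il7 difference with si-dnmt was between -0.33 and 0.28 in the 4 states, with 95% intervals that lay within -0.84 to 0.79, and only the second set alone called it, under TNF (-0.43). TNF + IFN lowered Il7 1.60-fold in si-dnmt (-0.68 ± 0.25, adjusted p = 0.0323), from 8.23, 7.57, 13.8 and 14.9 CPM with no cytokine to 6.71, 6.96, 6.30 and 7.90 CPM. The second set was the high one without cytokine, and with both cytokines the 4 libraries lay within 6.30 to 7.90 CPM. The call was lost without 5 of the 8 libraries in turn, and the change was -0.20 within the first set and -1.01 within the second. With the block, Il7 was also called for TNF in si-control (0.45, adjusted p = 0.0261), for IFN in si-dnmt (-0.52, adjusted p = 0.0238) and for TNF + IFN against TNF under both siRNAs (-0.54, adjusted p = 0.0106, and -0.49, adjusted p = 0.0268).

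Il33 had 0 to 23 counts per library. Its group means were 0.113 to 0.186 CPM in the si-control groups and 0.306 to 0.390 CPM in the si-dnmt groups, with the second set of si-dnmt the high libraries (0.289 to 1.06 CPM). The ranges of the 2 siRNAs overlapped in every state. The difference with si-dnmt was 1.59 ± 0.92 with no cytokine (adjusted p = 0.251), from 1.03 without si-dnmt replicate 4 to 2.76 without si-control replicate 3, and 1.00 to 1.07 in the other states, none called outside the block fit given above, and no cytokine changed it by the test.

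The receptor chains for these factors came from a list of 16 genes, of which 13 passed the filter. Il1rl1, the IL-33 receptor, Il2rb, the beta chain that IL-15 shares with IL-2, and Il7r, the IL-7 binding chain, had at most 8 counts in any library. Both tested chains of the IL-15 receptor rose with the cytokines, as Il15 did. Il15ra rose with TNF, IFN and TNF + IFN in si-control (log2 2.19 ± 0.24, 2.62 ± 0.24 and 4.48 ± 0.26), from 7.92 to 176 CPM under the combination. Il2rg, the common gamma chain, rose by 1.87, 1.43 and 2.95 in the same contrasts, from 20.6 to 159 CPM. In si-dnmt the values of Il15ra were 2.08, 2.35 and 3.98 and those of Il2rg 1.49, 1.23 and 2.42, all called. Il6st stood at 378 to 457 CPM in the group means and was called in no contrast, whereas Il6ra, the IL-6 binding chain, fell with TNF in si-control (-0.96 ± 0.36, adjusted p = 0.0443) and Il11ra1 fell with it too (-0.84 ± 0.16). Il1rap, a coreceptor of IL-33, rose with TNF in si-control (0.82 ± 0.18). Lifr (16.4 to 37.9 CPM) was called in no contrast, and neither was Csf3r, with group means of 0.160 to 0.994 CPM.

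In all, TNF + IFN raised 4 and lowered 4 of the 13 chains in si-control (median log2 fold change 0.27), and likewise in si-dnmt (0.09). Of all genes, 45.2% and 40.2% were called in these contrasts. Csf2ra, the alpha chain for GM-CSF, was among those raised in si-control (1.04 ± 0.26). Csf2rb and Csf2rb2, near-identical paralogs whose reads may be shared, fell there (-1.35 ± 0.48 and -1.47 ± 0.47). Csf1r, the receptor of Csf1, was at 0.459 to 1.13 CPM and fell with IFN in si-control (-1.03 ± 0.32, adjusted p = 0.0271, called in neither replicate set alone).

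With si-dnmt, of the 13 receptor chains tested, 1 was called with no cytokine, 1 under TNF, 2 under IFN and 0 under TNF + IFN. Of all genes, 18.5%, 20.0%, 20.3% and 17.7% were called in these states. Il2rg was 0.85 ± 0.19 higher with no cytokine and 0.64 ± 0.18 higher under IFN. Kit, the receptor of Kitl, was lower under TNF by a log2 fold change of -1.51 ± 0.54 (70.0 to 24.6 CPM, adjusted p = 0.0488). Its means were also lower with si-dnmt in the other states, where it was not called. They went from 62.5 to 28.5 CPM with no cytokine, 54.6 to 21.4 CPM under IFN and 27.9 to 9.71 CPM under TNF + IFN. Csf2rb was 1.34 ± 0.48 higher under IFN (adjusted p = 0.0460), with 0.47 within the second set, not called. The medians of the list were 0.25, 0.12, 0.22 and 0.11 in the 4 states.

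Among 40 other interleukin and hematopoietic cytokine genes, 15 passed the filter. Il3, Il12a, Il13, Il17a, Il17b and Il22 were at 0 in every library. With si-dnmt, 5 rose with no cytokine, 7 under TNF, 5 under IFN and 6 under TNF + IFN, and 0, 1, 0 and 1 fell, with medians of 0.68, 0.48, 0.23 and 0.61. The shares of all genes called were 18.5%, 20.0%, 20.3% and 17.7%. Ebi3 and Il27, whose products pair as IL-27, were the 2 with the largest change under TNF + IFN. Il27 went from 3.13 CPM in si-control to 21.1 CPM in si-dnmt (log2 2.74 ± 0.32, adjusted p = 6.38e-07) and Ebi3 from 0.318 to 2.40 CPM (2.92 ± 0.51). Il1f9 and Il1f6, which encode IL-36 gamma and alpha, were higher there by 1.92 ± 0.46 and 1.40 ± 0.42, Il1f6 being called in neither replicate set alone. Il24, an IL-10 family gene, was 2.85 ± 0.42 higher with no cytokine. The gene that fell, named here after its values were seen, was Clcf1, another gp130 ligand, under TNF (-0.63 ± 0.17) and under TNF + IFN (-0.62 ± 0.17, not called within the second set). With the cytokines, TNF + IFN raised 9 and lowered 2 in si-control, beside 45.2% of all genes called. The largest were Il27 (7.48 ± 0.61), Il24 (5.43 ± 0.41), Il18 (5.40 ± 0.44) and Ebi3 (4.17 ± 0.94). In si-control without cytokine Il27, Ebi3 and Il18 were at or under 0.124 CPM, so that these fitted changes are no bounds. Il34, the other ligand of the Csf1 receptor, rose with TNF in si-control (3.86 ± 0.42, 0.219 to 3.30 CPM).

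All 14 regulators of cytokine transcription and mRNA stability passed the filter. TNF + IFN raised 8 in si-control and lowered none (median 0.66), beside 45.2% of all genes called. Irf1, the transcription factor induced by IFNγ, rose by 4.91 ± 0.17, from 35.8 to 1077 CPM. The combined change of Irf1 lay below the sum of the separate log2 changes under both siRNAs (-1.50 ± 0.20 in si-control, adjusted p = 4.21e-05, and -1.13 ± 0.20 in si-dnmt, adjusted p = 0.00366). Atf3 rose by 3.00 ± 0.22, Zfp36, which encodes the mRNA decay factor tristetraprolin, by 2.13 ± 0.16, and Arid5a, which stabilizes Il6 mRNA, by 1.94 ± 0.31. With si-dnmt, 4 rose with no cytokine, beside 18.5% of all genes called. They were Irf1, Rela, Atf3 and Zfp36, by 0.31 to 0.75, with Atf3 at 0.00 and Rela at 0.16 within the first set, not called there. Zc3h12a, which encodes the RNase regnase-1, was higher with si-dnmt under TNF (1.19 ± 0.29), IFN (0.95 ± 0.29) and TNF + IFN (0.99 ± 0.29, 0.42 and not called within the first set). Zfp36l2, a relative of Zfp36, was lower in the same states (-0.94, -0.97 and -1.03). The list's medians with si-dnmt lay between -0.08 and 0.09.

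Of 10 feedback and target genes of gp130 and STAT signaling, TNF + IFN raised 7 in si-control and lowered 1 (median 1.21), beside 45.2% of all genes called. The largest rises were those of Fgl2 (5.54 ± 0.44) and Socs1 (4.87 ± 0.30). With si-dnmt, Pim1 was lower in all 4 states (-0.77, -0.97, -0.55 and -0.48, the last not called within the first set). Socs1 was higher with no cytokine and under TNF (1.01 ± 0.30 and 1.12 ± 0.26), and Fgl2 was lower under IFN and TNF + IFN (-1.60 ± 0.31 and -0.94 ± 0.31). Socs3, a target of IL-6 type cytokines, was called for no siRNA contrast.

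The genes most like each factor were found by Pearson's r of log2 CPM over the 32 libraries, which share groups, replicate sets and depth, and r is given as a description. Csf1 was most like Ikbke (0.98) and the noncoding RNA Mirt1 (0.96), and Lif most like Il24 (0.97) and Isoc1 (0.96). Il15 was most like Ccl8 and its own receptor gene Il15ra (both 0.98), with 199 genes over an r of 0.9. Csf2 was most like Icosl (0.93) and Slc6a4 (0.91), and Kitl most like Vegfa (0.94) and Mthfd1l (0.93). Il6 was most like Lcn2 and 1110008P14Rik (both 0.92), and Csf3 most like Trak2 (0.92) and Tnfrsf23 (0.90). Il7 (Grb10, 0.85) and Il33 (Shisa4, 0.80) had no gene over 0.9.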

How the data were processed

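Total RNA of the 32 libraries (Veravec mouse lung ECs, 8 groups of 4) was sequenced. The authors deposited raw counts per gene as whole numbers, as 1 file per library and 1 merged table. Both agreed in every cell once identifiers were summed by gene symbol. Per the submitters' processing notes the tools were cutadapt 4.9, FastQC 0.12.1, MultiQC 1.27.1, featureCounts and DESeq2. For the aligner, genome build, annotation and strand setting: not given in the sources used here. Groups came from the labels, and all 32 count columns matched a library.

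The counts deposited library by library, for 54532 gene identifiers, were fitted with edgeR 4.0.16 (limma 3.58.1, R 4.3.3). The fit used TMM scaling, a filter on low counts (filterByExpr, minimum 10) and 1 mean per group over all 32 libraries. Two-sided quasi-likelihood tests of 17 contrasts were adjusted by Benjamini-Hochberg across 15254 genes. Calls were made at adjusted p under 0.05, SEs were derived from the F statistic, and contrasts of 1 siRNA share control libraries. The fit was tested on simulated counts with 200 changed genes. These counts carried no cytokine effect and no difference between the replicate sets, so that test does not bear on either. Lengths were unions of exons of GENCODE M21, and promoter sequences came from RefSeq (GRCm38.p6). A count of 0 allows up to 3 counts, 0.0896 to 0.173 CPM by library, and such limits and counting intervals cover counting error only.

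The replicate numbers 1 to 4 are shared by all groups in the labels. Deviations from the group means of same-numbered libraries correlated in all 112 pairs of groups and numbers (r of 0.297 to 0.617), so a fit with the replicate number as a block was run and is given where it changed a call. In 70 of the 112 the same number was the best match, and libraries of the other number of the same set correlated nearly as well (median 0.409 against 0.415).

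Alternatives were DESeq2 1.42.0, its size factors in edgeR, no filter, the block, each replicate set alone, only the groups of the contrast, and leaving out each library. The 10 genes and all gene lists were chosen with earlier results of these data known. Named were the 10 genes, Dnmt1, the receptor chains, in each other list up to 4 called genes with the largest change per contrast, and the 2 genes most like each tested factor. The result for 1 other promoter motif is not reported here.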

Additional observations from a re-analysis of the deposited data

Results flagged for a closer look

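Of 80 sets of 4 libraries (10 genes in 8 groups) tested for a library far from the others, 2 held one. The test divides the gap to the nearest library by the range, which gives 1.00 whenever the other 3 libraries are at 0. Its chance rate of about 1 in 20 therefore does not hold for such counts. The test also does not flag 2 libraries that stand apart from the other 2. Csf2 stood at 0.168 CPM (3 counts) in si-control + IFN replicate 1 and at 0 in the other 3 libraries of that group. Il11 stood at 0.162 CPM (3 counts) in si-control + IFN replicate 4 and at 0 in the other 3. Both values lie at the limit that a count of 0 allows at these depths.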

How the results depend on the processing

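The 89 results counted here are those of the 9 tested genes that the main fit or at least 1 other setting called. Leaving out a library did not count for this choice. Of their 615 values under the other settings, 516 kept their direction and their side of the threshold. Of the others, 7 lost a call, 6 changed sign and the rest, the largest class, gained a call. A result not called by the main fit entered only because another setting called it, so gained calls follow in part from this choice. The 808 values with 1 library left out gave 777, 20 and 2, and the rest gained a call. The cause was not tested. The replicate block lost no call among these genes or among 233 calls of the gene lists, and moved the number of these genes called for si-dnmt to 4 with no cytokine and 5 under IFN (32.4% and 34.5% of all genes called), for IFN in si-dnmt to 4 (19.0%), for TNF + IFN against TNF to 7 (si-control, 33.9%) and 4 (si-dnmt, 29.7%), and for the siRNA by TNF + IFN interaction to 1 (4.18%). It changed no other count by over 1.5 times. Within replicates 1 and 2, the counts were 4 for si-dnmt with no cytokine (23.9% of all genes called), 8 for TNF in si-control (37.2%), 4 for IFN in si-dnmt (19.4%), 5 and 5 for TNF + IFN against TNF (36.4% and 30.3%), 1 each for the siRNA by IFN and by TNF + IFN interactions (1.80% and 4.86%), and 2 (si-control, 10.6%) and 1 (si-dnmt, 4.80%) for TNF by IFN. Within replicates 3 and 4, they were 4, 7 and 6 for si-dnmt with no cytokine, TNF and IFN (36.5%, 36.4% and 38.5%), 4 for IFN in si-dnmt (16.1%), 7 and 5 for TNF + IFN against TNF (25.1% and 25.5%), 3 each for the siRNA by TNF and by TNF + IFN interactions (8.04% and 11.8%), and 1 for TNF by IFN in si-control (4.35%). A fit of only the groups compared called 4 and 4 for TNF + IFN against TNF (17.1% and 19.3%).

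Within replicates 1 and 2 the sign turned for si-dnmt in Csf2 with no cytokine (-0.47) and Il6 under TNF (-0.10), for TNF + IFN in si-control in Il7 (0.26) and for the siRNA by TNF interaction of Csf1 (0.16). Within replicates 3 and 4 it turned for si-dnmt in Csf3 with no cytokine (1.90) and for IFN in si-dnmt in Kitl (-0.03). With 1 library left out, the count for IFN in si-control (4 with all) was 2 to 3, for TNF + IFN against TNF in si-control 2 to 4 and for the siRNA by TNF + IFN interaction 0 to 1. Csf3 with si-dnmt and no cytokine ranged from -1.35 to 0.38 (turned without si-control replicate 2), and Kitl with IFN in si-dnmt from -0.02 to 0.44 (turned without si-dnmt replicate 1). Depth limits Il11, Il33, Csf3 in replicates 3 and 4 of the si-control groups and Csf2 without TNF, which have few reads per library.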
